A study of Mus musculus with 2 samples.

Results

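The cytosolic ribosomal protein genes were taken as every gene whose symbol began with Rpl or Rps followed by a digit, P0 to P2 or the letter a, without the Rps6k kinases and without copies annotated with "-ps". The rule gave 85 of the 12638 genes measured, 51 with large-subunit (Rpl) and 34 with small-subunit (Rps) symbols. Of these, 77 encode proteins of the usual cytosolic ribosome. The other 8 were the paralogues or copies Rpl3l, Rpl6l, Rpl7l1, Rpl22l1, Rpl36al, Rps27l and Rps27rt, and Rps19bp1, which encodes a protein that binds the Rps19 protein and is not a subunit. The rule left out 14 "-ps" copies and 8 Rps6k genes. The values came from 12458 single cells of 4 C57Bl6 mice that carried subcutaneous MC38-OVAdim tumours, a mouse colon carcinoma line that expresses ovalbumin. In KO1 and KO2 the gene Havcr2, which encodes the receptor TIM-3, had been targeted, and WT1 and WT2 were Havcr2fl/fl controls with floxed alleles. What drove Cre, and the age of the mice, are not stated by the labels. CD45-positive cells were sorted from 3 sites of each mouse, namely the tumour, the node that drains it (dLN) and another node that does not (ndLN). Dendritic cells (DC) were enriched in the sort, and there were 12 samples. All tissues were digested with enzymes, and only the tumour cells also went through a density gradient. KO1 and WT1 shared droplet channel 1, and KO2 and WT2 shared channel 2.

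Cytosolic ribosomal proteins assemble with ribosomal RNA into the large and the small subunit, and each usual protein is present once per subunit except the stalk proteins. Their mRNAs are among the most abundant of a lymphocyte. Most begin at a C followed by a run of pyrimidines, the terminal oligopyrimidine (TOP) motif, through which the growth-sensing mTOR pathway controls their translation. Resting lymphocytes are known for small cytoplasm and low total RNA, and activation enlarges both.

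The start sites of members on which several results below turn are shown because the library read the 5' end of the mRNA and because parent genes and paralogues differ there. Each run holds the 15 bases before and the first 15 bases from the RefSeq start in GRCm38.p6, on the gene's strand. Capitals mark every C followed by at least 5 bases that are each C or T, with those bases.
Rps6, chr4:86857353-86857382, minus strand: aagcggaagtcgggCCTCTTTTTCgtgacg
Rpl12, chr2:32961697-32961726, plus strand: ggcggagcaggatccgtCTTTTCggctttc
Rpl31, chr1:39367836-39367865, plus strand: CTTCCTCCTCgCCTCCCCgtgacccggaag
Rps27, chr3:90213634-90213663, minus strand: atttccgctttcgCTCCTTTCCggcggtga
Rps27rt, chr9:114982725-114982754, minus strand: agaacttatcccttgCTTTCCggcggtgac
Rps27l, chr9:66946071-66946100, plus strand: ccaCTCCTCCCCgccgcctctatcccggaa
Rpl36a, chrX:134585639-134585668, plus strand: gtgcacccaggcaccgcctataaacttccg
Rpl36al, chr12:69184053-69184082, minus strand: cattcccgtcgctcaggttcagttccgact
Rpl22, chr4:152324421-152324450, plus strand: cgctgcttctggaatgttccagctcccact
Rpl22l1, chr3:28805493-28805522, plus strand: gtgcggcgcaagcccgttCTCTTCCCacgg

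Such a run stood in the window of 36 of the 64 members that had an entry in the RefSeq promoter table (56.25%), against 6883 of all 27025 genes in that table (25.5%). Only the gene's strand was searched, a gene with several starts counted if any of its windows held the run, and for Rps27l and Rpl22, which have 2 listed starts, the outermost one is shown. A match is a description of these letters and not a mapped start. The windows of Rps27 and of its retrogene copy Rps27rt shared the letters CTTTCCggcggtga, whereas that of Rps27l did not hold them.

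The samples held 3031124 to 28498154 unique molecular identifiers (UMIs, counted mRNA molecules) in 473 to 1691 cells, and the median cell of a sample held 13877 to 16751.5 UMIs in tumours, 3778 to 5285 in dLN and 4308.5 to 5254 in ndLN. Levels are given as UMIs per 10000 UMIs of a cell, averaged over the cells of a type in a sample with at least 20 such cells. Cell types were gated by marker genes, none of them a member, which placed 10409 cells; 699 T cells with neither or both of the CD4 and CD8 markers and 1350 other cells were left out. The channels shared 65 cell barcodes. Havcr2 followed the genotype labels in tumour macrophages, with 0.0700 and 0.0401 UMIs per 10000 in KO1 and KO2 against 0.646 and 0.573 in WT1 and WT2 (limma log2 difference -0.61 ± 0.04 SE, adjusted p = 0.00116). In tumour monocytes it had 0.907 and 0.790 in KO1 and KO2 against 1.17 and 1.60 in WT1 and WT2, which did not pass the test (-0.36 ± 0.11 SE, limma adjusted p = 0.954). In tumour CD8 T cells it was present in both genotypes, at 1.40 and 0.624 UMIs per 10000 in KO1 and KO2 and 1.58 in WT1. In T cells, B cells, pDC and mature DC of the nodes it was at most 0.115 UMIs per 10000 in any WT sample. Node cDC1 had 1.25 in WT1 against 0.00613 and 0.0308 in KO1 and KO2 in dLN. In ndLN they had 0.980 and 1.19 in WT1 and WT2 against 0.0128 in KO2. The cDC2 of dLN had 0.695 in WT1 and 0 in KO1 and KO2, and these DC values carry no test.

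Members made up 22.3% of all UMIs, and single cells ranged from 0.747% to 57.3% with a median of 25.8%. CD8 T cells of the nodes had the highest share of the gated types. It was 42.1% and 42.6% in KO1 and KO2 and 42.9% and 44.5% in WT1 and WT2 in dLN, and 42.7% to 44.0% in ndLN. CD4 T cells followed with 34.0% to 36.3% in dLN, and B cells with 29.8% to 32.7%, so the ranges of these 3 types did not overlap over the mice. Conventional DC came next. The cross-presenting cDC1 had 27.5% ± 0.342 (SD, n = 3) in dLN and cDC2 26.9% ± 0.585 (SD, n = 3), and their ranges overlapped. Plasmacytoid DC (pDC) had 21.6% ± 0.787 and mature DC, the migratory Ccr7-positive state, 20.9% ± 2.82 (SD, n = 4 each). Mature DC varied most between mice among these node types, with 18.5% and 24.8% in KO1 and KO2 against 19.2% and 21.0% in WT1 and WT2, and KO2 rested on 22 cells.

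In tumours, NK cells had 27.1% in KO1 and 24.4% in WT1, and CD8 T cells had 24.2%, 26.2% and 26.2% in KO1, KO2 and WT1. Nonclassical monocytes had 17.7% on average over KO1 and WT1. Macrophages had 13.6% and 15.5% in KO1 and KO2 against 14.8% and 17.7% in WT1 and WT2, and monocytes 13.04% and 12.8% in KO1 and KO2 against 13.6% and 13.7% in WT1 and WT2. Neutrophils, the lowest of the gated types, had 5.27% in WT1 and 3.63% in WT2. The types also differed in depth: tumour macrophages held median UMIs of 19820.5 to 20419 per cell and dLN B cells 2953 to 3417. Among cells with 5000 to 10000 UMIs the shares were 45.3% in CD8 T and 34.2% in B cells of dLN, and 15.8% in tumour macrophages.

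**Figure D1:**
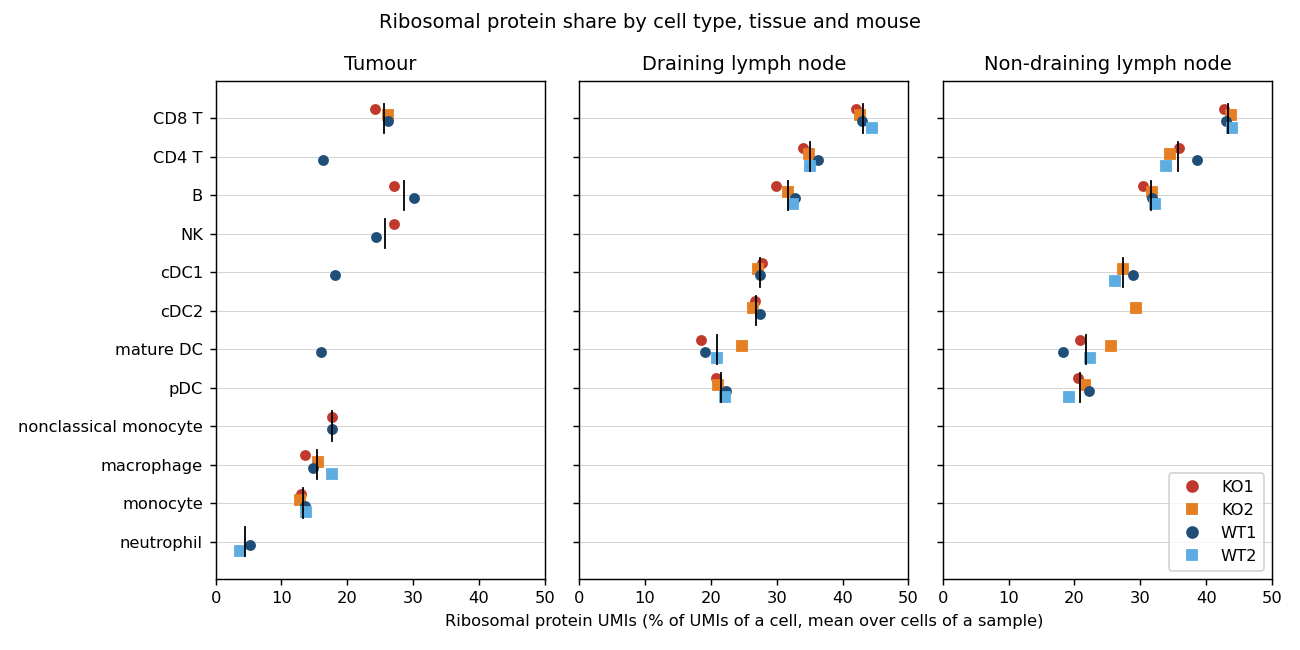
Ribosomal protein UMIs as a percentage of the UMIs of a cell, averaged over the cells of each mouse, by gated type (rows) and tissue (panels), with the mean over mice as a black line where at least 2 mice had 20 cells. Node CD8 T cells sit at 42.1% to 44.5%, tumour CD8 T cells at 24.2% to 26.2%, and tumour neutrophils at 3.63% to 5.27%.

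Large-subunit symbols took more UMIs than small-subunit symbols in every type, with a ratio of 1.17 in dLN CD8 T cells and 1.36 in tumour macrophages. These are ratios of sums over 51 Rpl and 34 Rps genes and not of levels per gene. The member with most UMIs was Rps24, a small-subunit protein, in dLN CD8 T cells (161 ± 5.61 UMIs per 10000, SD, n = 4), dLN B cells (118.8 ± 3.28) and dLN CD4 T cells (129.3 ± 3.37). It was followed in CD8 T cells by Rpl13, Rpsa, Rps20 and Rps15a. In mature DC of dLN the first 2 were Rpsa, a small-subunit protein also known as a laminin receptor (68.1 ± 2.39), and Rps19, a protein of the small-subunit head whose gene is mutated in Diamond-Blackfan anaemia (67.7 on average). In tumour macrophages the first was Rpl41, the shortest ribosomal protein (44.4 ± 7.80). In neutrophils it was Rps9 (29.4 ± 9.29 over WT1 and WT2, SD, n = 2). The lowest members in node T and B cells were Rpl3l, Rps19bp1, Rpl6l, Rpl7l1, Rps27l and Rps27rt. In cDC1, cDC2, mature DC and pDC of dLN the same ones without Rps27l were lowest. In neutrophils Rpl23a and Rpl7l1 were at 0, on 20 and 21 cells of WT1 and WT2. Those cells had medians of 1736.5 and 1848 UMIs, of which 93.5 and 69 were the median UMIs of members, so a 0 can reflect low depth. A 5' UMI count takes each captured mRNA once whatever its length, so levels were not scaled by length.

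Tumour CD8 T cells had lower levels of nearly every member than dLN CD8 T cells of the same mice. Of the 84 members tested, 75 were lower and 1 was higher at an adjusted p under 0.05 (limma with the mouse as a term, KO1, KO2 and WT1), against 8.24% of all 7175 genes tested that were lower and 20.2% that were higher. The median difference of the members was -0.65 on the log2 scale and that of all genes 0.05. WT2 had too few tumour CD8 T cells to enter. All p-values below come from limma fits over all genes of a comparison with Benjamini-Hochberg adjustment, and log2 differences are of log2(1 + UMIs per 10000).

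The stalk of the large subunit recruits translation factors, and its members moved unequally. Rplp1, an acidic stalk protein, had 30.1, 37.6 and 40.2 UMIs per 10000 in tumour CD8 T cells of KO1, KO2 and WT1, against 90.4, 93.8 and 92.1 in dLN cells of these mice (log2 difference -1.34 ± 0.07 SE, adjusted p = 2.01e-13). The groups did not overlap, and this was the largest fall among the members. Rpl12, at the base of the stalk, had 12.1, 13.96 and 14.1 against 32.4, 31.5 and 31.2 UMIs per 10000 (-1.19 ± 0.08 SE, adjusted p = 9.67e-11). Rplp0, the protein that anchors the stalk, had 56.8, 58.7 and 64.8 against 99.9, 98.4 and 102.6 (-0.73 ± 0.05 SE, adjusted p = 2.46e-10). Rplp2, the partner of Rplp1, had 24.5, 27.7 and 24.9 against 40.2, 41.0 and 41.6 (-0.65 ± 0.07 SE, adjusted p = 1.84e-07).

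Small-subunit members fell by similar amounts. Rps19 had 27.2, 29.8 and 33.9 UMIs per 10000 in tumour CD8 T cells of KO1, KO2 and WT1, against 69.6, 69.4 and 67.5 in dLN cells (-1.16 ± 0.07 SE, adjusted p = 6.55e-12). Rps20, another protein of the small-subunit head, had 44.0, 48.8 and 49.9 against 102.8, 103.9 and 105.8 (-1.12 ± 0.06 SE, adjusted p = 2.01e-13). Rps27a, made as a fusion with ubiquitin, fell by 0.86 on the log2 scale, Rpsa by 0.69, and Rps6, the substrate of the S6 kinases, by 0.66. Large-subunit Rpl36a fell by 1.10 and Rpl10, needed for the last step of subunit joining, by 0.71.

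The member that rose was Rps27l, the paralogue of Rps27 and a known p53 target gene. It had 1.66, 1.95 and 1.71 UMIs per 10000 in tumour CD8 T cells of KO1, KO2 and WT1, against 0.734, 0.677 and 0.638 in dLN cells (0.72 ± 0.09 SE, adjusted p = 2.54e-06). Its level was thus higher in tumour cells of all 3 mice while Rps27, the parent gene, fell by 0.94 on the log2 scale. The 8 members that passed in neither direction were Rpl23a, Rpl24, Rpl7a, Rpl27, Rpl36al, Rpl6l, Rps19bp1 and Rpl7l1. Rpl6l was near the floor, averaging 0.310 UMIs per 10000 in tumour (n = 3) and 0.315 in dLN CD8 T cells (n = 4). Rps19bp1 and Rpl7l1 were also low, with 0.0120% and 0.0243% of the member UMIs in tumour CD8 T cells. At such levels log2(1 + level) can hardly move, so these 3 are not shown to be unchanged. Rpl13a (-0.25) and Rpl34 (-0.21) had the smallest falls among those that passed.

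**Figure D2:**
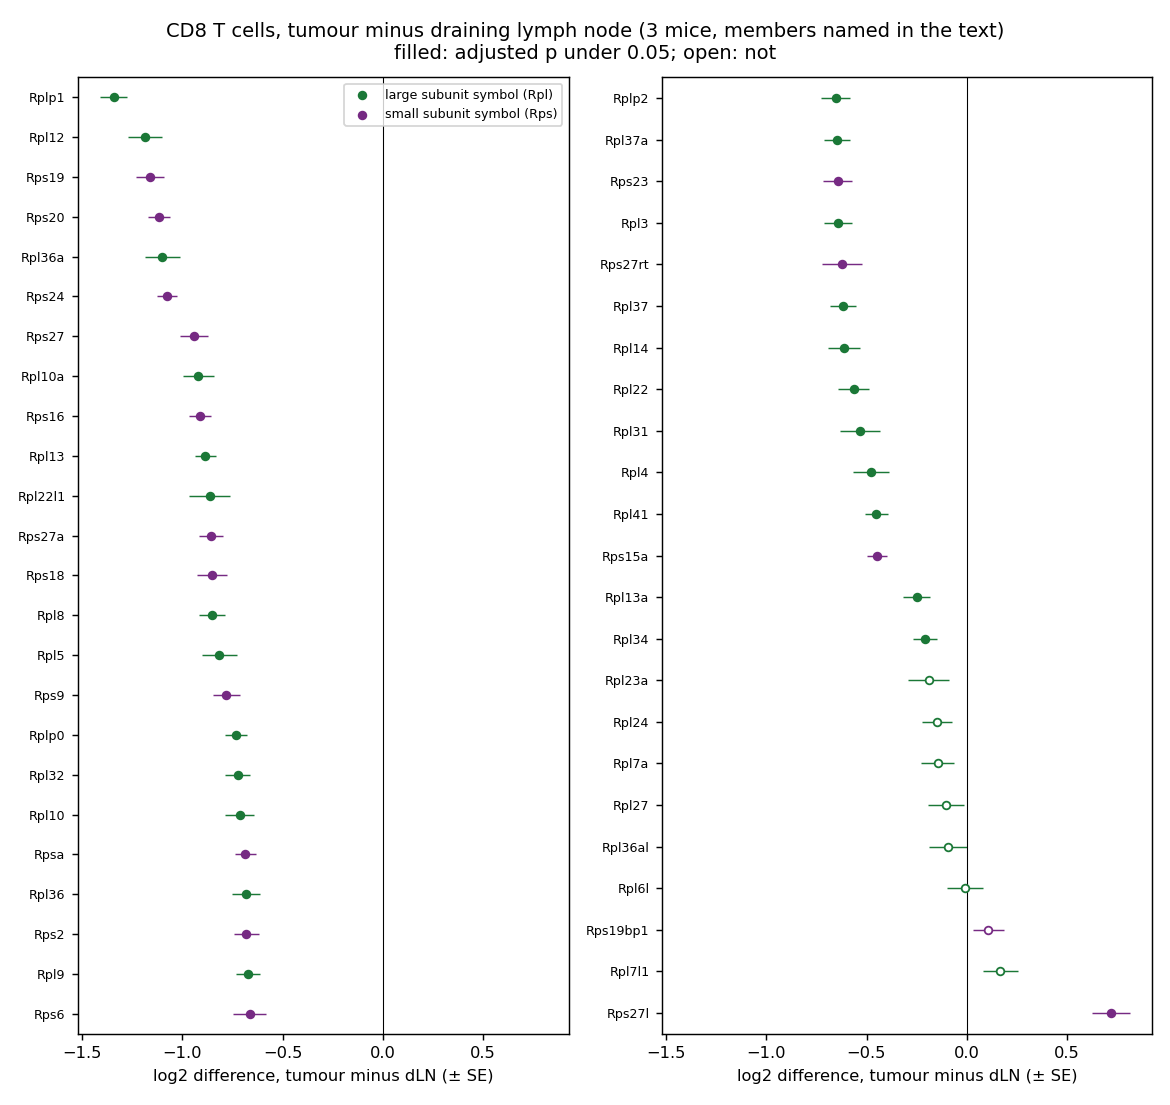
Difference in log2(1 + UMIs per 10000) of 47 of the 84 tested members, those named in the text, between tumour and dLN CD8 T cells of the same 3 mice (x axis, with its standard error), sorted from the largest fall at top left to Rps27l at bottom right. Filled points passed an adjusted p under 0.05: of those shown, 38 lie below 0 and 1, Rps27l, lies above, and the 8 open points did not pass.

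Other values moved with this comparison. The median tumour CD8 T cell held 5556 to 6055 UMIs of other genes, against 2761 to 2986 in dLN. UMIs of the members themselves had medians of 1686, 1921 and 2094.5 per cell in tumours of KO1, KO2 and WT1, against 2070, 2587 and 2388 in their dLN, so they were lower in each mouse and by less than the share. Scaling to the UMIs of genes other than ribosomal protein and mitochondrial genes gave 80 members lower and 1 higher with a median of -1.06. That scaling moved the median of all genes from 0.05 to -0.05, a shift of -0.10, and turned the split of all calls from 1452 higher and 591 lower to 735 higher and 1263 lower. Within the depth window of 5000 to 10000 UMIs the share was 25.3% in tumour (2 mice) against 45.3% in dLN. The 8 macrophage markers summed to 0.0830 to 0.654 UMIs per 10000 in tumour CD8 T cells against 0.136 to 1.10 in dLN ones, with 0 to 7 against 0 to 4 of them at 0. The 7 NK markers summed to 8.04 to 14.5 against 0.544 to 1.60, with 2 to 4 against 2 to 3 at 0. A list of 14 dissociation-stress genes, written after the files were seen, summed to 63.3 ± 8.96 in tumour (SD, n = 3) and 62.5 ± 7.66 in dLN (SD, n = 4). The part of the NK genes and of the tumour-only gradient step in the result was not tested, and the tissue and that step cannot be told apart.

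B cells did not show this fall at the threshold. Their share was 27.1% in KO1 and 30.2% in WT1 in tumours, against 29.8% and 32.7% in the dLN of these mice, on 23 and 24 tumour cells. With UMIs summed over the cells the share was 23.3% and 27.5% against 30.5% and 32.9%, a wider gap. Mitochondrial UMIs made up 5.74% and 4.55% in these tumour cells against 3.33% and 3.26% in dLN, and their part in the result was not tested. None of 84 members passed the limma test, against 0.351% of 6269 genes called higher and 0.0319% called lower. An unadjusted p under 0.05 was reached by 8 members, and limma-voom on summed UMIs called 9 members lower. Shares of all genes for these other counts are not given here, so they have no background to be read against. The median member difference was -0.11. With scaling to other genes the split of all calls was 36 higher and 10 lower in place of 22 and 2, and no member passed. Rpsa, with 59.2 and 66.8 UMIs per 10000 in tumour B cells of KO1 and WT1 against 69.5 and 77.0 in dLN, had the smallest p (-0.22 ± 0.07 SE, adjusted p = 0.529). The tumour-minus-dLN difference was then compared between the types directly in KO1 and WT1. It was lower in CD8 T than in B cells for 52 of 84 members and higher for none, against 1.52% of 6899 genes lower and 3.29% higher, with Rplp1 (-1.16 ± 0.13 SE, adjusted p = 0.00233) and Rps20 (-1.004 ± 0.09 SE, adjusted p = 9.49e-04) among them. Without a filter on detection 4 members passed as lower, against 8 of all 12107 genes (0.0661%). By limma-voom 22 passed as lower, against 2.12% of 6899 genes. The mean of log values gave 60 lower and 1 higher, against 2.06% of 6899 genes lower and 395 genes higher. With scaling to other genes 72 members were lower and 0 higher, and the split of all calls was 130 higher and 163 lower in place of 227 and 105. Macrophage markers summed to 5.53 to 9.66 UMIs per 10000 in tumour B cells against 2.04 to 3.07 in dLN ones, with 1 against 0 of the 8 at 0, and their part in the result was not tested.

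In the other types only 1 mouse, WT1, had 20 cells in both tissues, so values are given without a test. Tumour CD4 T cells of WT1 had a share of 16.4% against 36.3% in its dLN, tumour cDC1 18.2% against 27.5%, and tumour mature DC 16.0% against 19.2%. All 3 tumour values were below those of dLN, and 30 of the 41 tumour CD4 T cells of WT1 had a UMI of the regulatory T cell gene Foxp3.

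In the nodes, CD8 T cells exceeded B cells in 78 members in dLN, against 16.1% of 6528 genes higher, with 1 member lower (33.4% of genes lower). In ndLN 78 members were higher (15.4% of 6613 genes) and none lower (27% of genes). The median member difference was 0.40 in dLN and 0.42 in ndLN. Rplp0 had 99.9, 98.4, 102.6 and 99.5 UMIs per 10000 in dLN CD8 T cells of KO1, KO2, WT1 and WT2, against 45.3, 45.0, 55.1 and 45.7 in B cells (log2 difference 1.06 ± 0.04 SE, adjusted p = 3.46e-25). Rplp1 had 90.4, 93.8, 92.1 and 98.4 against 42.4, 44.1, 50.1 and 48.1 (1.01 ± 0.04 SE, adjusted p = 9.77e-25). Rpl12 (0.76), Rpl5, which carries the 5S ribosomal RNA (0.74), and Rps23 (0.68) followed. The member lower in CD8 T cells of dLN was Rpl7l1 (-0.17 ± 0.05 SE, adjusted p = 0.00428), at 0.333 to 0.537 UMIs per 10000 against 0.475 to 0.666 in B cells. These ranges overlapped, and the call was lost with scaling to other genes and with the mean of log values.

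CD4 T cells were lower than CD8 T cells in 73 members in dLN (3.58% of 6795 genes) and 65 in ndLN (2.69% of 6799 genes), and higher in none (14.5% and 8.44% of genes). The median member difference was -0.27 in both nodes. Rps18, a protein of the small-subunit head, had 29.9, 29.7, 33.4 and 31.2 UMIs per 10000 in dLN CD4 T cells of KO1, KO2, WT1 and WT2, against 38.7, 42.0, 40.6 and 43.3 in CD8 T cells (-0.40 ± 0.04 SE, adjusted p = 1.49e-09). The groups did not overlap. Rpl13 (-0.39), Rpl32 (-0.39) and Rpl37 (-0.38) were close, and Rpl13 and Rpl32 were also among the 5 lowest in ndLN. The ndLN count was 40 without KO2 and 25 without the detection filter.

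Scaling also set the split of all genes in these comparisons. For CD8 T against B cells in dLN it was 1053 higher and 2180 lower as given and 1790 higher and 1298 lower with scaling to other genes, while the members counted 80 higher and 0 lower. For CD4 T against CD8 T cells in dLN it was 986 and 243 as given and 418 and 405 with that scaling, with 80 members lower. In ndLN the splits were 1021 higher and 1786 lower as given and 1676 and 1128 with that scaling for CD8 T against B cells, and 574 and 183 against 279 and 329 for CD4 T against CD8 T cells.

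Among DC, the mature state was set against cDC2 of dLN in KO1, KO2 and WT1. Mature DC were lower in 44 of 84 members (14.1% of 7930 genes) and higher in 3 (12.8% of genes), with a median of -0.43. Rpl8, a protein next to the peptidyl transferase centre, had 15.6, 15.2 and 14.7 UMIs per 10000 in mature DC of KO1, KO2 and WT1, against 33.4, 28.5 and 33.9 in cDC2 (-1.02 ± 0.16 SE, adjusted p = 3.64e-06). The groups did not overlap. Rpl22l1, the paralogue of the RNA-binding protein Rpl22, had 1.59, 2.57 and 1.93 against 5.32, 4.77 and 5.08 (-1.01 ± 0.17 SE, adjusted p = 7.18e-06). Rpl12 (-0.93) and Rpl4, which lines the exit tunnel (-0.92), were close. Rps27l was higher, with 6.92, 10.9 and 7.04 against 2.62, 2.60 and 2.497 (1.35 ± 0.17 SE, adjusted p = 4.51e-08). Rps19 had 60.2, 72.8 and 65.0 against 46.6, 42.7 and 52.3 (0.48 ± 0.14 SE, adjusted p = 0.00917), and Rpsa had 71.1, 68.0 and 65.3 against 51.1, 48.2 and 54.3 (0.41 ± 0.14 SE, adjusted p = 0.0217). Rps19 lost the call with scaling to other genes (limma adjusted p = 0.0998) and so did Rpsa (adjusted p = 0.156), and both lost it without the detection filter, with the mean of log values and without KO1 or WT1. The total count of 47 was 20 without KO1 and 12 without WT1.

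cDC1 and cDC2 differed in fewer members. Of 84, 13 were higher in cDC1 of dLN (6.41% of 9016 genes) and 7 lower (8.02% of genes), and the median difference was 0.04. Rpl14 had 26.6, 26.4 and 27.6 UMIs per 10000 in cDC1 of KO1, KO2 and WT1, against 19.3, 17.7 and 20.1 in cDC2 (0.48 ± 0.08 SE, adjusted p = 9.98e-04). Rpl3, of the peptidyl transferase centre (0.42), Rpl36al (0.40), Rps6 (0.36) and Rps2 (0.36) were also higher. Rps27 (-0.36) and Rpl37a (-0.33) were lower. Without KO2 the count was 3 members in all, and without KO1 it was 11.

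pDC, which secrete interferon, were set against B cells. They were lower in 74 members in dLN (21.7% of 6613 genes) and 73 in ndLN (15.9% of 6600 genes), and higher in 5 and 4 (27.1% and 23.2% of genes). The median difference was -0.55 in dLN. Rps19 had 22.4, 19.8, 23.0 and 24.2 UMIs per 10000 in dLN pDC of KO1, KO2, WT1 and WT2, against 53.4, 58.8, 56.4 and 56.4 in B cells (-1.295 ± 0.05 SE, adjusted p = 3.09e-21). Rps27 fell by 1.20 and Rpl12 by 1.06 on the log2 scale. Against this, Rpl31, a protein at the rim of the exit tunnel, had 15.2, 18.9, 18.6 and 16.4 in pDC against 5.91, 6.36, 7.15 and 6.13 in B cells (1.304 ± 0.07 SE, adjusted p = 1.28e-18), and no mouse overlapped. Rps27l (0.85), Rpl36al (0.75) and Rpl10 (0.35) were higher as well in dLN, and all 3 also in ndLN, where Rpl10 lost the call with scaling to other genes. With that scaling the split of all dLN genes was 1388 higher and 1992 lower, in place of 1790 and 1435, and that of ndLN genes 1194 and 1486 in place of 1530 and 1050.

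In tumours, macrophages were higher than monocytes in 43 members (25.8% of 9406 genes) and lower in 3 (19.6% of genes), with a median of 0.17. Rpl12 had 5.88, 6.96, 6.85 and 8.31 UMIs per 10000 in macrophages of KO1, KO2, WT1 and WT2, against 3.45, 3.78, 3.88 and 3.47 in monocytes (0.78 ± 0.08 SE, adjusted p = 2.78e-06). Rplp1 (0.73), Rpl31 (0.70), Rps20 (0.67) and Rpl36a (0.66) were also higher. Rps27, a zinc-finger protein of the small subunit, went the other way, with 9.49, 11.6, 9.72 and 12.3 against 14.1, 14.8, 14.3 and 15.8 (-0.43 ± 0.07 SE, adjusted p = 2.27e-04). The other lower members were Rps9 (-0.29) and Rps27rt (-0.14). Rps9 lost the call without WT1 (limma adjusted p = 0.0632), and Rps27rt lost it without KO1 (adjusted p = 0.0845), without WT2 (adjusted p = 0.0811) and with the mean of log values (adjusted p = 0.0683). CD8 T cells of the tumour exceeded monocytes in 78 members (21.7% of 8200 genes) and were lower in none (21.1% of genes), with Rpl13a, which also takes part in translational silencing (1.85), Rps15a (1.74) and Rpl12 (1.61) first. The split of all genes was 1780 higher and 1727 lower in that comparison, and 2401 and 1457 with scaling to other genes.

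Cycling macrophages, gated by 8 genes of cell division, were higher than non-cycling ones in 9 members (19.6% of 9536 genes) and lower in 11 (12.4% of genes), with a median of -0.01. Rps27l (0.22 ± 0.04 SE, adjusted p = 2.41e-04) and Rpsa (0.21 ± 0.04 SE, adjusted p = 7.76e-04) were higher, and Rps27 was lower (-0.38 ± 0.04 SE, adjusted p = 4.64e-06). The cycling cells held more UMIs, with medians of 27899 to 31679.5 against 16780 to 18416.5, and the part of depth in this result was not tested. Averaging log values per cell gave 32 members higher and 4 lower, and the shares of all genes under that averaging are not given here. Scaling to other genes gave 6 members higher and 14 lower, with 1653 of all genes higher and 1211 lower. The direction of the members thus depended on the setting.

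Each member's part of the ribosomal protein UMIs was then followed across 10 types and tissues, for the 81 members with at least 2 UMIs per 10000 in one of them. The ranges are descriptions, with no test. The median range between the highest and lowest type was 0.59 on the log2 scale, and 12 members had a range over 1. Rpl9, Rpl36 and Rps16 had ranges of 0.24, 0.24 and 0.28. At the other end stood Rps27l, with a range of 4.57 between mature DC and CD8 T cells of dLN; it entered through its high groups, with 0.704 UMIs per 10000 in those CD8 T cells. Rpl31 followed with 2.23, being 2.02 above the median of types in pDC, where it made up 0.7997% of the set against 0.170% in dLN CD8 T cells. Rpl22l1 (1.79), Rpl12 (1.66), Rps19 (1.65), Rps27 (1.59), Rps27rt (1.56) and Rpl36al (1.52) were next. These parts are shares of 1 total, so they are not independent of each other. Rps27rt entered only through dLN CD8 T cells, with 2.02 UMIs per 10000, and had 0.329 in tumour macrophages, its lowest group.

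**Figure D3:**
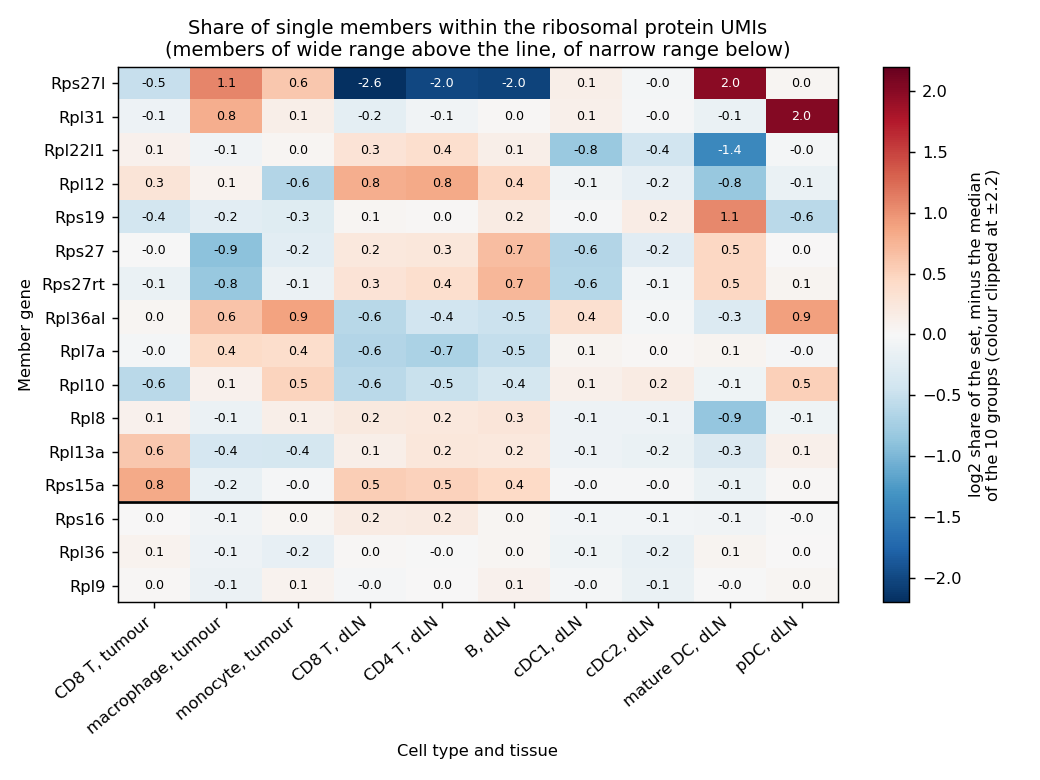
Share of each member in the summed ribosomal protein UMIs, as log2 minus the median of the 10 type and tissue groups (columns), for members of wide range and, below the line, members of narrow range. Rps27l runs from -2.6 in dLN CD8 T cells to 2.0 in dLN mature DC, and Rpl31 stands at 2.0 in pDC.

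Paralogue pairs showed these differences without the sum over the set. For Rps27l over Rps27 the ratio of UMIs was 0.0107 in dLN CD8 T cells (0.0101 to 0.0115 over 4 mice), 0.0117 in B cells and 0.0159 in CD4 T cells. It was 0.0864 in cDC2, 0.129 in cDC1 and 0.218 in mature DC of dLN (0.177 to 0.264). Tumour CD8 T cells had 0.0537 (0.0501 to 0.0574 over 3 mice), above every node T cell sample, and tumour macrophages had 0.297 (0.282 to 0.324 over 4 mice). Tumour mature DC of WT1 had 0.631.

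Rpl22l1 over Rpl22, a pair of RNA-binding proteins of which Rpl22 is needed for T cell development, were ordered differently. The ratio was 0.464 in dLN CD8 T cells (0.453 to 0.477), 0.373 in B cells, 0.235 in cDC2, 0.162 in cDC1 and 0.110 in mature DC (0.0996 to 0.123). Rpl36al over Rpl36a was 0.357 in dLN CD8 T cells and 0.766 in tumour CD8 T cells (0.654 to 0.900 over 3 mice), since Rpl36a fell and Rpl36al did not pass the test. It was above 1 in dLN pDC at 1.32 (1.15 to 1.49) and in tumour monocytes at 1.49 (1.43 to 1.65). Rps27rt over Rps27, by contrast, had means between 0.0247 and 0.0380 in every type and tissue with at least 2 mice other than neutrophils. Rps27rt is a near copy of Rps27, and how the authors' counting divided reads between such copies is not given in the sources used here. Rpl3l, known from muscle, was close to 0 throughout, and Rpl39l and Rps4l were not analysed here.

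**Figure D4:**
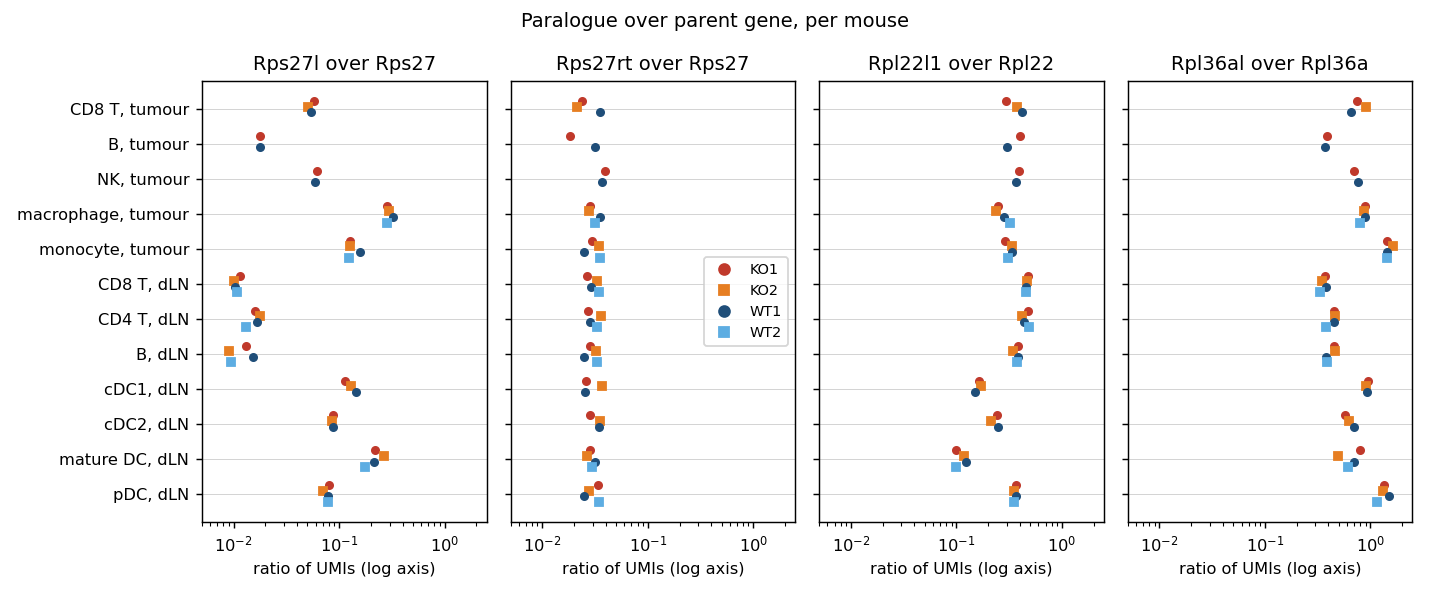
Ratio of the UMIs of a paralogue or copy to those of its parent gene (x axis, log scale), per mouse, for 12 types and tissues. Rps27l over Rps27 spans 0.0107 in dLN CD8 T cells to 0.297 in tumour macrophages, while Rps27rt over Rps27 stays near 0.03.

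KO was compared with WT in 12 types and tissues, with 2 mice of each genotype. Havcr2 itself passed the detection filter in tumour macrophages and monocytes alone, and was called lower in the macrophages; in the 10 node comparisons it was near 0 in WT too. No member of the 84 passed limma in any of them. The share of all tested genes called, in either direction, was 0.0143% and 0% in CD8 T cells of dLN and ndLN, 0.0576% and 0% in CD4 T cells, 0.0327% and 0% in B cells, 0.0123% in pDC of either node, 0.0706% and 0% in mature DC, 0.0417% in tumour macrophages (0.0209% higher and 0.0209% lower) and 0% in tumour monocytes. limma-voom called none either. At an unadjusted p under 0.05 there were 10 members in dLN B cells, 2 in ndLN B cells, 1 in each of CD4 T cells of ndLN, mature DC of dLN and of ndLN and macrophages, and 0 in the other 6 comparisons. The share of all genes at that unadjusted threshold is not given here, so these counts have no background to be read against.

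In tumour macrophages the differences had 1 sign: all 84 members were below 0, with a median of -0.14 against -0.01 for all 9585 genes. The members were measured in the same 4 mice and vary together, so the 84 signs are not independent of each other. Rpl22l1 had 2.92 and 3.27 UMIs per 10000 in KO1 and KO2, against 3.60 and 4.91 in WT1 and WT2 (-0.35 ± 0.13 SE, adjusted p = 0.797). With the channel as a block, 5 members passed as lower in KO, namely Rpl22l1 (-0.35 ± 0.07 SE, adjusted p = 1.52e-04), Rps18 (-0.30), Rpl10a (-0.29), Rpl5 (-0.26) and Rps6 (-0.25). That fit called 183 of all 9585 genes higher and 212 lower. Without WT1 Rpl22l1 was the 1 member that passed (-0.53 ± 0.13 SE, adjusted p = 0.0154), while 133 of all 9594 genes were higher and 114 lower. The WT group is then WT2 alone, and the fit takes its spread to equal that of the other groups. The share of members was lower in KO than in WT within each channel, 13.6% against 14.8% in channel 1 and 15.5% against 17.7% in channel 2, while the genotypes overlapped across channels. This order was not particular to macrophages. It also held in tumour monocytes, in CD8 T and B cells of both nodes, and in CD4 T cells and pDC of dLN. The dLN pDC had 20.8% and 21.0% in KO1 and KO2 against 22.3% and 22.2% in WT1 and WT2. It did not hold in CD4 T cells and pDC of ndLN or in mature DC of either node, and these shares carry no test. In mature DC the median member difference was 0.09 in dLN and 0.19 in ndLN. There KO1 and KO2 had shares of 18.5% and 24.8% in dLN against 19.2% and 21.0% in WT1 and WT2, and leaving out KO1 made 6 members higher in KO, Rpl23a among them (0.81 ± 0.18 SE, adjusted p = 0.0104). That fit called 347 of all 7173 genes higher and 353 lower, and its KO group is the 22 cells of KO2 alone, assumed to vary like the other groups.

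**Figure D5:**
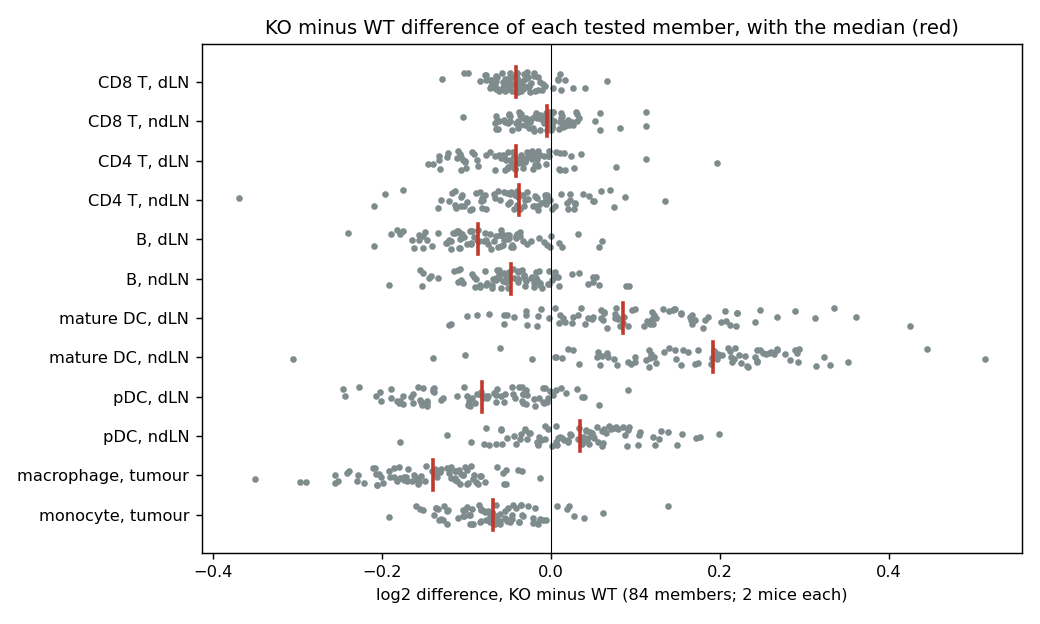
Difference in log2(1 + UMIs per 10000) between KO and WT for each of the 84 tested members (grey points), with the median of the members as a red line, in 12 type and tissue comparisons of 2 mice each. The medians run from -0.14 in tumour macrophages to 0.19 in ndLN mature DC, and no member passed the test.

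The draining and the non-draining node did not differ in any member at the threshold. In 6 types, 0 of 84 members passed limma, and limma-voom also called 0; the share of all genes called was 0.0736% in CD8 T cells (0.0294% higher and 0.0442% lower), 0.0293% in CD4 T cells, 0.0447% in cDC1 and 0% in B cells, pDC and mature DC. With scaling to other genes, which left the members at 0 calls, all calls were 6 higher and 28 lower in cDC1 in place of 0 and 4, 1 and 3 in CD8 T cells in place of 2 and 3, and 3 and 1 in CD4 T cells in place of 2 and 0. At an unadjusted p under 0.05 there were 2 members in pDC, 1 in B cells and 0 in the others, and the share of all genes at that threshold is not given here. The genotype difference between the nodes also passed limma for no member in the 5 types tested (0 of 84 each). Among all genes the share called was 0% in CD8 T, CD4 T and pDC, 0.0164% in B cells and 0.0141% in mature DC. At an unadjusted p under 0.05 there was 1 member, in CD4 T cells, again without a share of all genes to set it against. This fit had no mouse term, so the 2 nodes of a mouse were taken as independent samples.

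Genes of the wider ribosome programme were counted from lists written with earlier results of these data known. Between tumour and dLN CD8 T cells, 9 of 23 translation factor and other TOP genes were lower and 1 higher (median -0.16), and 6 of 32 ribosome biogenesis genes were lower and 1 higher (median -0.11). Of the mitochondrial ribosomal protein genes, which serve a separate ribosome, 21 of 76 were higher and 1 lower (median 0.13). Among all genes of that comparison 8.24% were lower and 20.2% higher (median 0.05). Among regulators of ribosomal protein genes, 3 of 17 were higher and 0 lower. Between macrophages and monocytes, 23 of 32 biogenesis genes and 49 of 76 mitochondrial ones were higher, with 0 and 2 lower, against 25.8% of all genes higher and 19.6% lower. Between cycling and non-cycling macrophages, 9 of 32 biogenesis genes were higher and 0 lower, and 40 of 77 mitochondrial ones were higher and 0 lower, against 19.6% of all genes higher and 12.4% lower.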

How the data were processed

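Single-cell 5' RNA-seq of CD45-positive cells was processed with Cell Ranger 3.0.2 on mm10, per the submitters' processing notes. The authors deposited natural log values, which proved to be ln(1 + 10000 × UMIs / UMIs of the cell): back-transformed they summed to 10000 per cell, and 100% were whole UMIs within 0.01, so counts were recovered. How cells, genes and doublets had been filtered is not given in the sources used here; no cell was removed, and no doublet caller was run. Cells were gated by detected markers (at least 50% of a list and a lead of at least 1 marker; T cells by at least 2 CD3 genes, then Cd8a, Cd8b1 or Cd4). Per mouse, tissue and type with at least 20 cells, means of UMIs per 10000 were tested as log2(1 + mean) with limma 3.58.1 (trend) in R 4.3.3, over genes with a UMI in 5% of cells, and p-values were adjusted within each of 31 comparisons. Gate genes were left out between types. Comparisons between tissues and between types used the mouse as a term. The KO against WT fits, and the fit of that difference between the nodes, had no mouse term and took several tissues of a mouse as independent. The fits of KO against WT in dLN B cells and of tumour against dLN in CD8 T cells were tested on simulated counts. Those counts were drawn without a mouse or channel effect, so that test does not cover such effects. The labels place 1 KO and 1 WT mouse in each channel; across genes, deviations of channel mates correlated at -0.148 to 0.64 in 12 groups, so the channel was used as a block in an alternative. Depth precision covers counting error only. Members and lists were chosen with earlier results of these data known; the gate's scoring, the depth window, the stress list, the promoter window and the CD8 T against B difference were chosen after the files were seen. Members named are, per comparison, those past the threshold with up to 5 changes in each direction, or those of smallest p where fewer than 5 passed, with fixed paralogue pairs, stalk genes, Rpsa, Rps6, Rpl10 and Rps27a. Samples of 2 mice a genotype give p-values that rest on a spread shared across genes. Some members are not reported here by name; they stayed in every sum, fit and count.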

Additional observations from a re-analysis of the deposited data

Results flagged for a closer look

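The tumour-minus-dLN difference of the members differed between CD8 T and B cells by a direct test in KO1 and WT1: 52 of 84 members had a lower difference in CD8 T cells, with a median of -0.57 for the members against 0.08 for all genes. This rested on 23 and 24 tumour B cells. The count was 4 without the detection filter, where 0.0661% of 12107 genes were lower. It was 22 by limma-voom, where 2.12% of 6899 genes were lower.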

How the results depend on the processing

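With 4 mice, 2 of each genotype, and samples of 20 or more cells, a member that missed the threshold is not shown to be alike between groups. Of the 87 called values of named members, none changed sign under any alternative; of 852 alternative values, 815 kept the call and 37 lost it. Counts of called members moved by over 1.5 times in these cases, and the cause was not tested. They are counts of members alone, and the shares of all genes under these alternatives are mostly not given. For KO against WT, macrophages had 5 with the channel as a replicate block and 0 to 1 when a mouse was left out, and mature DC of dLN had 0 to 6; the block changed no other call. Tumour against dLN B cells had 3 with the mean of log values and 9 by limma-voom, added after seeing the data. CD4 T against CD8 T cells of ndLN had 25 without the detection filter and 40 to 70 with a mouse left out. Mature DC against cDC2 had 31 without the filter and 12 to 67 with a mouse left out. cDC1 against cDC2 had 3 to 21 with a mouse left out. Cycling against non-cycling macrophages had 36 with the mean of log values, 32 by limma-voom and 13 to 17 with a mouse left out. The CD8 T minus B difference had 4 without the filter and 22 by limma-voom. The main shares were those of CD8 T cells in tumour and dLN, B, CD4 T, pDC and mature DC in dLN, and tumour macrophages and monocytes. Of these, the ones that moved beyond their spread went to 34.2% in dLN B, 45.3% in dLN CD8 T and 13.8% in monocytes in the depth window. Under 5% mitochondrial UMIs, dLN CD4 T cells went to 36.5%. Of the alternatives for other shares, 31 moved and 73 did not, with groups of 1 mouse, which have no spread, counted as moved. Summed UMIs gave 25.4% in place of 28.7% in tumour B cells and 28.5% in place of 25.7% in tumour NK cells, both beyond their spread. The stricter gate left too few cDC2 for the DC comparisons, no cDC comparison was made in ndLN, where only KO2 had 20 cDC2, and NK cells were too few in the nodes for the planned comparison with CD8 T cells and were not compared in tumours.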

Other observations

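Within a gated type, states also differed in the share of ribosomal protein UMIs; the states were defined after the files were seen, and these values carry no test. CD4 T cells of dLN with a UMI of Foxp3, the regulatory T cell factor, had shares of 9.86% and 21.4% in KO1 and KO2 and 23.2% and 25.5% in WT1 and WT2, against 35.9% and 35.9% in KO1 and KO2 and 37.9% and 35.8% in WT1 and WT2 in cells without one, on 6 to 12 positive cells per mouse. The positive cells were lower in each of the 4 mice. In tumours, Foxp3-positive cells of WT1 had 14.4% (30 cells) against 21.7% in negative ones (11 cells). In CD8 T cells of dLN a UMI of Ccl5, a chemokine of effector and memory cells, went with overlapping shares: positive cells had 41.8% and 43.1% in KO1 and KO2 and 42.2% and 43.5% in WT1 and WT2, against 42.3%, 42.3%, 43.6% and 44.8% in negative cells. Tumour CD8 T cells with a UMI of Ccl5 had 24.04% in KO1 and 26.1% in WT1, both below the Ccl5-positive cells of dLN.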
